A study of Homo sapiens with 24 samples.

Results

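The comparison described here set SJSA-1 cells given 50 nM THZ531 for 6 h against SJSA-1 cells given the solvent DMSO for the same time. It was chosen by the sample labels and holds 6 of the 24 arrays of the series, 3 with 50 nM THZ531 and 3 with DMSO. SJSA-1 is an established human osteosarcoma line whose genome carries extra copies of MDM2 and its neighbours on chromosome 12, and the cells were grown in serum-containing DMEM. The other arrays hold SJSA-1 cells at 200 and 800 nM and U2-OS, a second osteosarcoma line, at the same doses and in DMSO, again 3 arrays a group. RNA was read on Affymetrix PrimeView arrays, and a gene counted as active when its mean log2 intensity over the 3 SJSA-1 DMSO arrays lay above 6.64, the log2 of 100. Of 18132 genes with a probe set, 6568 were active, and each was read by 1 probe set, the brightest over all arrays. The active genes nearest the limit were PTGR3, PFKL and NALF1 at 6.65, and the nearest below it were INTS4, LONRF1 and LRCH4 at 6.64. No source tells whether the replicate arrays came from separate cultures, so the p-values measure how these arrays spread, and that spread may be technical.

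THZ531 is a covalent inhibitor of CDK12 and CDK13, kinases that, together with cyclin K, phosphorylate the tail of RNA polymerase II while it moves along a gene. Loss of CDK12 activity is known for lowering long DNA repair genes and for the use of early polyadenylation sites inside introns. A second kinase of elongation, CDK9 with cyclin T, forms P-TEFb. P-TEFb is held inactive by HEXIM1, LARP7 and MEPCE on the 7SK RNA. Short genes that are switched on within minutes of a stimulus, the immediate-early genes, make unstable RNA and follow changes in transcription quickly.

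The promoter stretches shown first belong to genes picked by name from those discussed below, and they are no sample of the rises or falls. Each covers the 60 bases before the annotated transcription start in RefSeq (GRCh38.p14), read 5′ to 3′ on the strand of the gene, with the letters TATAAA in capitals where they begin between 45 and 15 bases before the start. JUNB, BTG1, HEXIM1 and ADM rose at least 2-fold at 50 nM, and PALB2 and BARD1, members of the homologous recombination pathway, fell at least 2-fold. Each rise shown carries the letters, but only 8 of the 56 genes at least 2-fold higher with a promoter entry do. The larger rises SAT1, KMT5B and SNX5, and BRD2, have none in this window.
JUNB (chr19:12791426-12791485, plus strand): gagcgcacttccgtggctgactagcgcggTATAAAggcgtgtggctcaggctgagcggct
BTG1 (chr12:92145847-92145906, minus strand): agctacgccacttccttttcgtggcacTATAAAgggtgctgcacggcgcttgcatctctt
HEXIM1 (chr17:45148415-45148474, plus strand): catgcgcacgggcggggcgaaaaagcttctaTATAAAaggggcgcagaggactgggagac
ADM (chr11:10305013-10305072, plus strand): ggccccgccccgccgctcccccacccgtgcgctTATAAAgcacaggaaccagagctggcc
PALB2 (chr16:23641311-23641370, minus strand): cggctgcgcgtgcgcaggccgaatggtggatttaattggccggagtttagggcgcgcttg
BARD1 (chr2:214809684-214809743, minus strand): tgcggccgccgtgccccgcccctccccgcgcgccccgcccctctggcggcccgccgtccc

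Beginning between 45 and 15 bases before the start, on the strand of the gene, TATAAA stood in 8 of the 56 genes at least 2-fold higher that have a promoter entry (14.3%), in 4 of 361 at least 2-fold lower (1.11%) and in 118 of 5610 active genes (2.1%). Among the active immediate-early genes it stood in 8 of 20 (40%), and among those of homologous recombination and of the centrosome in 0 of 18 each. Searched on both strands over all 250 bases before the start, the letters occurred in 16.1% of the genes at least 2-fold higher, 7.2% of those at least 2-fold lower and 7.58% of active genes. A gene with several annotated starts counted when any of them had the letters, so the shares also depend on how many starts a gene has. These shares are descriptions of letters in a window and were given no test.

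Of the 6568 active genes, 4411 changed at 50 nM (67.2%, adjusted p under 0.05 from limma), 1748 of them higher (26.6%) and 2663 lower (40.5%). The large changes were mostly falls: 64 genes were at least 2-fold higher (0.974%) and 418 at least 2-fold lower (6.36%). The median log2 change of all active genes was -0.05, with 90% of the genes between -1.10 and 0.52, and the median standard error was 0.06. The 3 arrays with THZ531 did not overlap the 3 DMSO arrays for 4701 genes (71.6%). The poly-A controls, RNAs added to each sample before labelling, had mean log2 signals of 6.69, 6.50 and 6.42 in the 50 nM arrays, against 5.83, 6.23 and 6.02 in the DMSO arrays. This difference of 0.51, and that of 0.22 for the hybridization controls, had an exact permutation p of 0.1 (two-sided, n = 3 each), the smallest that 3 against 3 arrays allow. Scaled by the poly-A controls the median of all genes was -0.55, with 123 genes higher and 5346 lower, and scaled by the hybridization controls it was -0.27, with 532 higher and 4023 lower. A direction given below for a rise is therefore relative to the quantile-normalized arrays, and the part of RNA amount or labelling in the control signals was not tested.

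**Figure D1:**
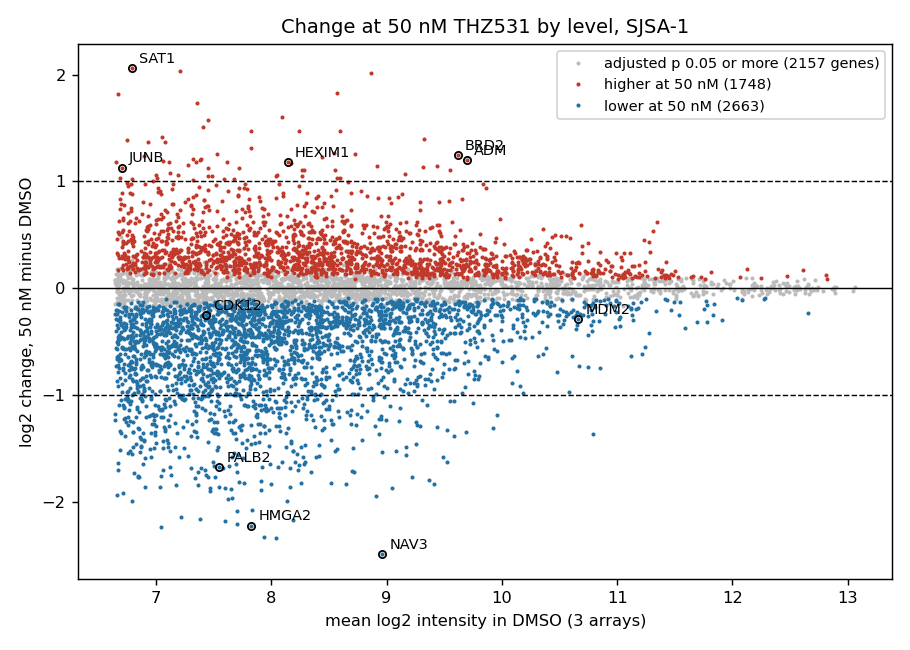
Log2 change at 50 nM (50 nM minus DMSO, vertical axis) of 6568 active genes in SJSA-1 against their mean log2 intensity in DMSO (horizontal axis). Red points are 1748 genes higher, blue points 2663 genes lower, grey points genes that missed the adjusted p of 0.05, and dashed lines mark 2-fold. Falls past 2-fold outnumber rises past it, 418 to 64.

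The largest rise was that of SAT1, the acetyltransferase that starts the breakdown of polyamines. SAT1 had log2 intensities of 8.83, 8.86 and 8.86 in the 50 nM arrays, against 6.75, 6.73 and 6.89 in the DMSO arrays. The gap between the groups, 4.17-fold (2.06 ± 0.05 on the log2 scale, SE, adjusted p = 7.89e-12), was many times the spread within either. KMT5B, a methyltransferase of histone H4 lysine 20, stood at 9.27, 9.24 and 9.21 with 50 nM and 7.08, 7.17 and 7.38 with DMSO, 4.08-fold higher (adjusted p = 2.06e-10). The sorting nexin SNX5, which works in endosomes, was 4.05-fold higher, at 10.91, 10.86 and 10.88 against 8.86, 8.80 and 8.94 in DMSO (adjusted p = 4.66e-12). For these genes every 50 nM array lay above every DMSO array. The homeobox gene HHEX had the widest DMSO spread of the 12 largest rises, at 9.15, 9.07 and 9.06 with 50 nM against 7.09, 7.63 and 7.35, and was still 3.33-fold higher (adjusted p = 2.66e-08).

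The other 8 of the 12 largest rises lay between 2.78-fold and 3.56-fold. They were RBM12, which encodes an RNA-binding protein, the heparan sulfate enzyme gene NDST1, the imprinted gene PHLDA2, the deubiquitinase gene USP15, PRKAA1 for a catalytic subunit of AMP-activated kinase, the nuclear pore gene NUP98, the Polycomb-related gene ASXL1, and CITED2, a partner of the coactivators CBP and p300. Their changes on the log2 scale were 1.83 for RBM12, 1.82 for NDST1, 1.60 for PHLDA2, 1.57 for USP15, 1.51 for PRKAA1 and 1.47 each for NUP98, ASXL1 and CITED2, with standard errors between 0.05 and 0.06. CITED2 was at 9.78, 9.73 and 9.63 in the 50 nM arrays and 8.21, 8.34 and 8.17 in the DMSO arrays, with no overlap.

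NAV3, a microtubule-binding neuron navigator gene on chromosome 12, fell furthest. It had log2 intensities of 6.60, 6.46 and 6.35 in the 50 nM arrays, against 9.0, 8.92 and 8.97 in the DMSO arrays. NAV3 was thus 5.63-fold lower (-2.49 ± 0.06 on the log2 scale, SE, adjusted p = 1e-11). INTS6, a subunit of the Integrator complex that ends transcription of many short RNAs, was 5.06-fold lower, at 5.73, 5.79 and 5.58 against 7.94, 8.02 and 8.16 in DMSO (adjusted p = 7.52e-11). HMGA2, which encodes an architectural chromatin protein, was 4.67-fold lower, at 5.58, 5.67 and 5.55 against 7.84, 7.85 and 7.78 (adjusted p = 1.82e-10). All 3 genes were active in DMSO and lay below the active level in every 50 nM array.

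Among the remaining large falls were genes of nuclear enzymes. The helicase gene DHX32 changed by -2.33, the chromatin remodeller gene CHD9 by -2.18, the histone deacetylase gene HDAC9 by -2.16 and the mismatch repair gene PMS1 by -2.09 on the log2 scale. Others encode membrane or trafficking proteins: APPBP2 changed by -2.24, GOLPH3L of the Golgi by -2.21, the adhesion gene FLRT2 by -2.17 and the lipid flippase gene ATP10D by -2.15. PRR14L, of less well known function, changed by -2.08. These 9 genes were between 4.22-fold and 5.02-fold lower, and each had an adjusted p between 9.18e-13 and 6.93e-09. ATP10D stood at 5.2, 4.85 and 5.16 in the 50 nM arrays and 7.12, 7.18 and 7.35 in the DMSO arrays.

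**Figure D2:**
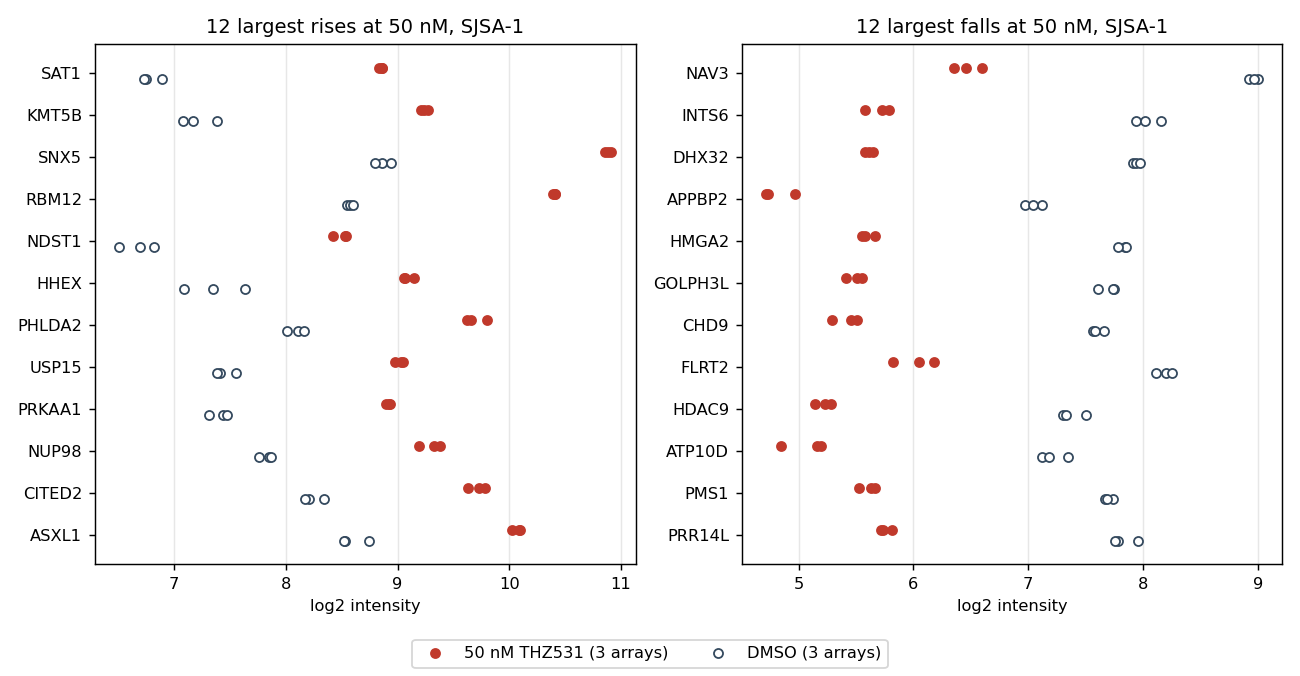
Log2 intensities (horizontal axes) of the 12 genes with the largest rises (left) and the 12 with the largest falls (right) in SJSA-1, with 3 arrays of 50 nM THZ531 (red, filled) drawn above 3 arrays of DMSO (open). In no gene shown do the groups overlap, and NAV3 lies between 6.35 and 6.60 with 50 nM against 8.92 to 9.0 with DMSO.

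Among the active kinases of transcription and their active regulators, the largest change was a rise of HEXIM1. CDK12, a target of the inhibitor, had log2 intensities of 7.22, 7.23 and 7.11 in the 50 nM arrays, against 7.46, 7.33 and 7.52 in DMSO, 1.19-fold lower (adjusted p = 0.00889). CCNK, the cyclin of CDK12 and CDK13, was higher by 0.44 on the log2 scale (1.36-fold, adjusted p = 4.54e-07), with 9.13, 9.18 and 9.09 against 8.68, 8.70 and 8.69. CDK13 was not active, at 5.46, 5.73 and 5.46 with 50 nM and 6.47, 6.30 and 6.62 with DMSO, and stayed outside the test. HEXIM1, which inhibits P-TEFb, was 2.27-fold higher, at 9.45, 9.22 and 9.30 against 8.14, 8.12 and 8.17 (adjusted p = 8.33e-09). Its 3 active probe sets all rose, by 1.18, 2.54 and 1.01 on the log2 scale, and the mean of its probe sets changed by 1.88.

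The partners of HEXIM1 and the kinase it restrains went the other way. CDK9 was 1.53-fold lower (-0.62), the 7SK capping enzyme gene MEPCE 1.51-fold lower (-0.60) and the 7SK-binding gene LARP7 1.49-fold lower (-0.57), with adjusted p between 1.81e-06 and 3.64e-05. CDK19, a Mediator kinase gene, was 1.58-fold lower. CDK7 of TFIIH, with a change of 0.11 (adjusted p = 0.0691), and the Mediator kinase gene CDK8, with -0.10 (adjusted p = 0.295), missed the threshold. Of the 15 active members of this list, 4 rose (HEXIM1, CCNK, CCNH and CCNL2) and 5 fell, 26.7% and 33.3% beside 26.6% and 40.5% of all active genes. The median of 0.06 turned to -0.45 under the poly-A scaling, to -0.16 under the hybridization scaling and to -0.005 without DMSO replicate 2. CCNL2, with a change of 0.14 (adjusted p = 0.0384), lost its call in 9 of the alternatives tried and changed sign under both control scalings. The cyclin T genes CCNT1 and CCNT2 were below the active level in DMSO, at means of 6.53 and 5.88, and stood at 7.29 and 7.15 with 50 nM.

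Among elongation factors and BET proteins, readers of acetylated histones, 9 of 23 active members rose (39.1%) and 8 fell (34.8%), beside 26.6% and 40.5% of all active genes. BRD2 was 2.37-fold higher, at 10.80, 10.95 and 10.83 with 50 nM against 9.60, 9.61 and 9.64 with DMSO (adjusted p = 3.68e-10), while its relative BRD3 was 2.31-fold lower, at 6.78, 6.66 and 6.57 against 7.83, 7.93 and 7.87 (adjusted p = 2.05e-09). Both groups of arrays were well apart for each gene. EAF1, a partner of the ELL elongation factors, changed by 0.95 and MLLT1, the ENL subunit of the super elongation complex, by -0.81 on the log2 scale.

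Of 31 active genes of Integrator and of mRNA 3′ end formation, 15 fell (48.4%) and 9 rose (29.0%), near the 40.5% and 26.6% of all active genes, with a median of -0.33. The 5 largest changes apart from that of INTS6 were in INTS7 (-1.27), SCAF4 (-1.27), INTS2 (-1.21), CSTF1 (-1.12) and PAPOLA (1.11). SCAF4 prevents the use of early polyadenylation sites and was at 7.14, 7.42 and 7.23 in the 50 nM arrays, against 8.52, 8.54 and 8.54 in the DMSO arrays. PAPOLA encodes poly(A) polymerase, and its probe sets are taken up further on. Among the SR proteins, hnRNPs and CLK kinases of splicing 9 of 34 were higher (26.5%) and 10 lower (29.4%), beside the same 26.6% and 40.5%. The splicing kinase gene CLK1 was 1.94-fold higher and its relative CLK2 1.61-fold lower, with HNRNPDL 1.80-fold lower.

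Of 21 active genes of homologous recombination, the Fanconi pathway and the DNA damage checkpoint, 19 fell and 0 rose, with a median log2 change of -0.66 against -0.05 for all active genes. PALB2, which links BRCA1 to BRCA2, had log2 intensities of 5.88, 5.77 and 5.97 in the 50 nM arrays, against 7.45, 7.56 and 7.64 in the DMSO arrays. It was 3.20-fold lower (adjusted p = 2.28e-07), and no array of one group reached the other. The checkpoint kinase gene ATR was 2.52-fold lower, at 6.22, 6.18 and 6.06 against 7.44, 7.55 and 7.47 (adjusted p = 3.73e-08). BLM, a helicase gene, was 2.68-fold lower and BARD1, the partner of BRCA1, 2.47-fold lower. RAD54B, EXO1, BRCA1 and SLX4 made up the rest of the 8 members at least 2-fold lower, with changes of -1.67, -1.18, -1.11 and -1.05. The checkpoint kinase gene CHEK1 did not pass the test, with 0.01 (adjusted p = 0.911), nor did FANCG, with -0.12 (adjusted p = 0.111).

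Centrosome genes showed a similar count, with 19 of 21 active members lower, 1 higher and a median of -0.59. CEP350 was 3.67-fold lower, at 5.78, 5.81 and 5.74 with 50 nM against 7.66, 7.64 and 7.66 with DMSO (adjusted p = 3.83e-09), and CEP135, a gene of centriole assembly, was 2.02-fold lower. CEP170 was 2.46-fold lower by its brightest probe set, while another of its probe sets was called higher. The exception was CEP78, 2.08-fold higher at 8.06, 8.11 and 8.01 against 6.93, 7.09 and 6.99 (adjusted p = 2.78e-09). In these lists the share of members that fell, 19 of 21 in each, stands beside 40.5% of all active genes. Their median spans on the genome were 56.0 kb and 84.4 kb, against 30.4 kb for all active genes. Other lists with long spans differed. Chromatin regulators (110.0 kb) fell in 68.8% of members, but collagen, laminin and integrin genes (90.1 kb) in 39.1% and receptor, RAS and MAPK genes (72.5 kb) in 41.7%. The NF-kB and cytokine list, at 12.9 kb, fell in 66.7%. The part of span in these shares was not tested.

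In the mitosis list 33 of 51 active members fell (64.7%, beside 40.5% of all active genes) and 6 rose (11.8%, beside 26.6%), with a median of -0.29. The kinesin genes KIF18A, KIF20B and KIF14, whose products move or cross-link microtubules, were 3.12-fold, 2.73-fold and 2.60-fold lower. NDC80, of the outer kinetochore, was at 7.46, 7.57 and 7.65 in the 50 nM arrays and 9.05, 9.09 and 9.11 in the DMSO arrays, 2.87-fold lower (adjusted p = 5.5e-09). For DNA replication and the G1/S step, 27 of 51 members fell (52.9%) and 8 rose (15.7%), with a median of -0.14. GINS1 of the replicative helicase was 2.51-fold lower, and the origin recognition genes ORC5 and ORC2 and the polymerase subunit genes POLA2 and POLD3 were each between 2.08-fold and 2.27-fold lower.

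Chromatin regulators fell in 22 of 32 active members (68.8%, beside 40.5% of all active genes) and rose in 4 (12.5%, beside 26.6%), with a median of -0.38. Besides CHD9, the remodeller genes BPTF (-1.86) and ARID2 (-1.59) and the SET domain gene SETD5 (-1.10) fell, whereas NSD1, a methyltransferase of histone H3 lysine 36, was 2.36-fold higher at 8.16, 8.01 and 8.23 against 6.82, 6.91 and 6.95 in DMSO. Of 72 active numbered zinc finger genes, most of them repressors of transcription, 41 fell (56.9%) and 13 rose (18.1%). At least 2-fold lower were 15 and at least 2-fold higher 0, beside 6.36% and 0.974% of all active genes. ZNF346 and ZNF827 had the largest changes of this group, -1.89 and -1.86.

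Immediate-early genes moved the other way: 22 of 28 active members rose (78.6%, beside 26.6% of all active genes) and 3 fell (10.7%, beside 40.5%). At least 2-fold higher were 7, beside 0.974% of all active genes, and the median was 0.51. SERTAD1, a transcriptional coregulator gene, had log2 intensities of 8.13, 8.24 and 8.05 in the 50 nM arrays, against 6.67, 6.85 and 6.73 in the DMSO arrays, 2.62-fold higher (adjusted p = 4.21e-09). JUNB, an AP-1 subunit gene, was 2.19-fold higher, at 7.89, 7.88 and 7.72 against 6.66, 6.68 and 6.76 (adjusted p = 1.09e-08). The pseudokinase gene TRIB1 was 2.58-fold higher, the antiproliferative gene BTG1 2.15-fold higher and ZFP36L2, which marks AU-rich RNAs for decay, 2.07-fold higher. IER2 and IER5 completed the 7, with changes of 1.04 and 1.03 on the log2 scale. The 3 members that fell were the AP-1 genes FOSL2 (-0.93, with another probe set called higher) and FOSL1 (-0.91) and PPP1R15A (-0.37), a stress phosphatase subunit gene. Under the poly-A scaling the list median was 0.0006, with 9 members higher and 6 lower, and under the hybridization scaling it was 0.29, with 19 higher and 5 lower. The median span of the list was 4.2 kb.

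Of 9 active polyamine genes 6 rose, SAT1 included, and 0 fell, 66.7% and 0% beside 26.6% and 40.5% of all active genes. Among them were ODC1 for the first enzyme of synthesis (0.38), AMD1 (0.36) and the antizyme gene OAZ2 (0.47). Under the poly-A scaling these 3 changed sign, the list median of 0.36 became -0.15 and 1 member rose and 3 fell, while under the hybridization scaling the median was 0.14, with 2 higher and 2 lower. Replication-dependent histone genes rose in 5 of 6 active members, led by H4C12 (0.63), with a median of 0.33 that likewise became -0.17. Hypoxia and glycolysis genes rose in 10 of 26 members (38.5%) and fell in 3 (11.5%). Their median of 0.06 became -0.45 under the poly-A and -0.16 under the hybridization scaling. ADM, the adrenomedullin gene, was 2.29-fold higher at 10.86, 10.92 and 10.90 against 9.71, 9.70 and 9.68 in DMSO (adjusted p = 5.82e-11), and the angiogenic factor gene VEGFA was 1.40-fold higher.

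Ribosomal, respiratory chain and proteasome genes had small changes. Of 67 active genes of the cytoplasmic ribosome, 4 rose and 3 fell, and all lay between -0.30 and 0.24. In the respiratory chain and ATP synthase 22 of 75 rose (29.3%, beside 26.6% of all active genes) and 2 fell (2.67%, beside 40.5%). The median was 0.08, and NDUFA12 of complex I had the largest change, 0.41. The proteasome list had 11 of 32 members higher (34.4%) and 3 lower (9.38%), with PSMD5 changed most (-0.63). Mitochondrial ribosomal genes fell in 33 of 74 members (44.6%) and rose in 17 (23.0%), near the shares of all active genes, with MRPL49 changed by -0.83. The medians of the ribosome, respiratory chain and proteasome lists, 0.00, 0.08 and 0.06 here, lay between -0.50 and -0.14 under the control scalings.

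Among apoptosis regulators the largest change was in FADD. FADD, the adaptor that joins death receptors to caspase-8, was at 7.68, 7.55 and 7.52 in the 50 nM arrays, against 9.40, 9.34 and 9.50 in the DMSO arrays, 3.56-fold lower (adjusted p = 1.45e-07). The caspase inhibitor gene XIAP was 2.57-fold lower and TNFRSF1A, the main TNF receptor gene, 2.42-fold lower. In the list of apoptosis regulators 8 of 16 active members fell, 50% beside 40.5% of all active genes, and 0 rose. Among p53 targets 6 of 20 were higher (30%) and 8 lower (40%), near the 26.6% and 40.5% of all active genes. PLK2 was 1.92-fold higher, the repair gene XPC 2.2-fold lower and the death receptor gene TNFRSF10B 1.80-fold lower. The fall of TNFRSF10B turned to a change of 0.23 when all its probe sets were averaged.

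MDM2, the p53 ubiquitin ligase gene amplified in this line, had log2 intensities of 10.42, 10.19 and 10.51 in the 50 nM arrays, against 10.70, 10.74 and 10.55 in the DMSO arrays, 1.22-fold lower (adjusted p = 0.0149). Its call was lost under 5 of the alternatives tried, and its 11 active probe sets did not move together: 5 rose, 2 fell, and their changes ran from -1.13 to 0.47. Averaged over all its probe sets, MDM2 changed by 0.032. Around it on 12q13-15, 15 of 26 active genes fell (57.7%, beside 40.5% of all active genes) and 3 rose (11.5%, beside 26.6%), with a median of -0.21. HMGA2 fell furthest, followed by the tRNA methyltransferase gene METTL1 (2.58-fold lower) and the ubiquitin ligase gene MARCHF9 (-1.18), and LEMD3 (-1.07) of the inner nuclear membrane and the innate immune kinase gene TBK1 (-0.72) fell too.

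Growth signalling genes were split. In the receptor, RAS and MAPK list 10 of 24 members rose and 10 fell, 41.7% each, beside 26.6% and 40.5% of all active genes. EGFR, at 5.88, 5.96 and 5.72 with 50 nM and 6.98, 7.12 and 7.07 with DMSO, was 2.30-fold lower (adjusted p = 9.38e-08), the RAS exchange factor gene SOS1 2.81-fold lower and the WNT receptor gene ROR2 2.54-fold lower. The feedback genes DUSP4, a MAPK phosphatase, and SPRY2 were 1.77-fold and 1.72-fold higher. In the TGF-beta, SMAD and WNT list 17 of 26 fell (65.4%) and 6 rose (23.1%). The SMAD co-regulator genes RNF111 (-1.63) and TGIF2 (-1.29) and the inhibitory SMAD6 (-1.05) were lower. Of 18 active genes of NF-kB and cytokines 12 fell (66.7%), among them LIF (1.97-fold lower), NFKBIE (1.64-fold) and NFKB1 (1.42-fold), and 4 rose (22.2%), among them the chemokine gene CXCL5 (1.39-fold).

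Other transcription factor and stress genes gave values in both directions. TWIST2 (-1.28) and NFIA (-0.99) fell and SOX9, a chondrogenic factor gene, rose by 0.97 on the log2 scale. In the osteosarcoma transcription factor list 7 of 27 members were higher (25.9%) and 13 lower (48.1%), beside 26.6% and 40.5% of all active genes. The ATF4 list had 7 of 20 higher (35%) and 8 lower (40%), with the stress factor genes DDIT3 and XBP1 1.87-fold and 1.66-fold lower and CEBPG 1.43-fold higher. Of 28 active ubiquitin-specific protease genes, USP15 among them, 7 rose (25%) and 13 fell (46.4%), near the shares of all active genes. USP33 was 2.0-fold lower by its brightest probe set, while its other active probe set was higher by 0.64 on the log2 scale (adjusted p = 1.81e-07).

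The study picked candidate genes for super-enhancers in these cell lines, and the 7 looked at here are those its text names, not its whole set. Of these 7, 6 were active in DMSO, 5 fell and 1 rose. As the study chose them partly on these samples, their count is no independent evidence of a direction. LACTB, a mitochondrial protein gene, had log2 intensities of 6.70, 6.64 and 6.65 in the 50 nM arrays, against 8.15, 8.17 and 8.25 in the DMSO arrays, 2.88-fold lower (adjusted p = 4.52e-10). The other active probe set of LACTB changed by -0.12 (adjusted p = 0.114), and the mean of its probe sets by -0.82. CEP55, of the midbody in cell division, was 1.92-fold lower, at 8.50, 8.50 and 8.41 against 9.32, 9.46 and 9.45 (adjusted p = 5.66e-08). FOXP1, a forkhead factor gene, was 1.81-fold lower, at 8.65, 8.52 and 8.56 against 9.49, 9.37 and 9.44 (adjusted p = 3.97e-08). The splicing factor gene SRSF3 was 1.24-fold lower (adjusted p = 7.01e-06), and by the mean of its probe sets changed by -0.071 (adjusted p = 0.131). By their brightest probe sets DNAJB12 and the WNT effector gene TCF7L2 changed by -0.13 (adjusted p = 0.0286) and 0.16 (adjusted p = 0.049). These calls were lost under 6 and 9 of the alternatives, and that of TCF7L2 changed sign under both control scalings. Other active probe sets of DNAJB12 changed by -0.56, -0.58, -0.14 and -0.07, and the mean of its probe sets by -0.32 (adjusted p = 2.85e-06). The other active probe sets of TCF7L2 changed by 0.39 (adjusted p = 0.00602) and 0.40 (adjusted p = 0.00123). APOLD1 was below the active level, at a mean of 3.74 with 50 nM and 3.73 with DMSO.

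Among genes with 2 or more active probe sets, 230 of 3476 had probe sets called in opposite directions at 50 nM (6.62%), out of 30.2% of active probe sets called higher and 35.4% called lower. Of 31 genes at least 2-fold higher with several active probe sets, 14 had another probe set called lower (45.2%), beside 9.47% of all 982 higher genes with several. Of 128 genes at least 2-fold lower with several, 9 had another called higher (7.03%), beside 8.53% of all 1278 lower ones. The brightest probe set was picked over all 24 arrays, treated ones included, which can favour one that rose. In DMSO the probe sets used for SNX5, NUP98, KMT5B and ASXL1 were dimmer than another of the gene, but those of USP15 and RBM12 were not. The part of this rule in the 45.2% was not tested. KMT5B had 1 probe set at a mean of 5.57 with 50 nM and 8.0 with DMSO, a change of -2.43 (adjusted p = 2.13e-08), beside 2 that changed by 2.03 and 1.96. NUP98 had changes of 1.47, -1.35 and -0.99, and averaged over all its probe sets changed by -0.29. ASXL1 had 6 active probe sets with changes from -1.12 to 1.90, 2 higher and 3 lower. The probe sets of SNX5 changed by 2.02, -0.13 and -0.59 and those of USP15 by 1.57, 0.06 and -0.41. Averaged over all probe sets, ASXL1 changed by 0.060 (adjusted p = 0.228), SNX5 by 0.63, CEP170 by -0.33, USP33 by -0.18, FADD by -1.09, ORC5 by -0.62 and FOXP1 by -0.56.

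The same held for some genes chosen after their values were seen. WTAP, a subunit of the RNA adenosine methyltransferase complex, had 3 probe sets with changes of 1.18, 1.11 and 1.02 and 1 with -0.35. PAPOLA had 4 probe sets higher, 3 of them by 1.07 to 1.11, 1 lower by 0.12 on the log2 scale and 4 that missed the threshold. DIDO1 had probe sets with changes of 1.69, 1.21 and -0.99. The files give no position of a probe set within its gene, so which transcript each one read is not known here.

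Falls were more frequent among genes with a long span on the genome. Of 1326 active genes spanning under 10 kb 31.7% fell and 29.3% rose, whereas of 349 spanning 200 kb or more 59.6% fell and 16.3% rose. At least 2-fold lower were 2.79% of the shortest class and 12.3% of the longest. The median span was 62.5 kb for the 418 genes at least 2-fold lower and 27.2 kb for the 64 at least 2-fold higher, beside 30.4 kb for all active genes. Across 6566 genes with a span, the Spearman correlation of span with the change at 50 nM was -0.18, and with the DMSO level, which longer genes had lower, -0.17. The correlation of span with the change was -0.17 at 200 nM and -0.05 at 800 nM in SJSA-1, and 0.03 at 50 nM in U2-OS. The points share their arrays and genes are not independent replicates, so no p is given.

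**Figure D3:**
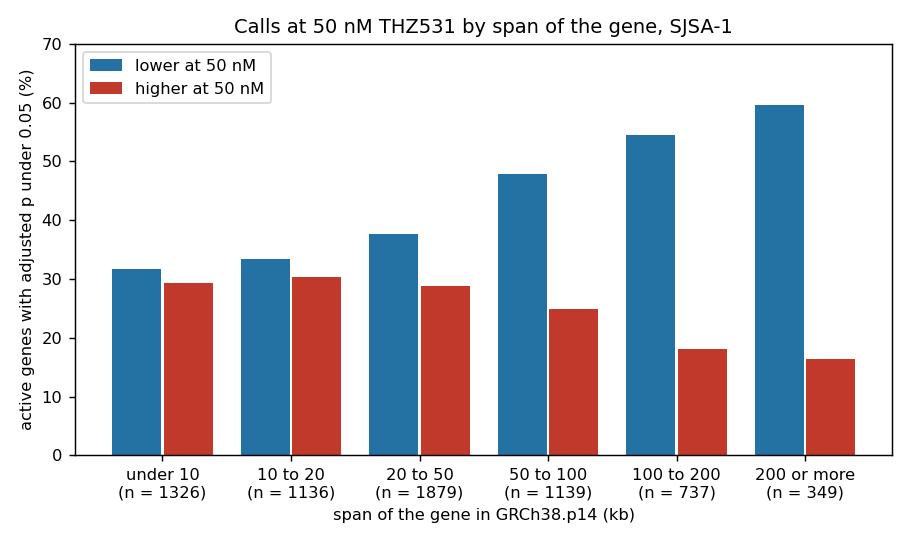
Share of active genes (vertical axis, percent) that were lower (blue) or higher (red) at 50 nM in SJSA-1, by the span of the gene on GRCh38.p14 (horizontal axis, kb, with the number of genes). The share of falls goes from 31.7% under 10 kb to 59.6% at 200 kb or more, and the share of rises from 29.3% to 16.3%.

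At higher doses in SJSA-1, the genes at least 2-fold higher at 50 nM had smaller changes. Their median change against DMSO was 1.18 at 50 nM, 0.66 at 200 nM and 0.26 at 800 nM, while the 418 genes at least 2-fold lower had medians of -1.28, -1.52 and -1.17. Both sets were picked at 50 nM and all doses share the DMSO arrays, so these values are a description. Fitted directly, 200 nM differed from 50 nM in 4231 active genes (64.4%), with 2200 higher (33.5%) and 2031 lower (30.9%), and with 786 higher and 1237 lower under the poly-A scaling. At least 2-fold apart were 9 genes higher (0.137%) and 269 lower (4.1%) at 200 nM.

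Some genes crossed the DMSO level between doses, and those shown were chosen after their values were seen. CLK1 had log2 intensities of 8.20, 8.30 and 8.22 in DMSO, 9.23, 9.12 and 9.23 at 50 nM, 8.03, 7.82 and 7.88 at 200 nM and 6.80, 6.95 and 6.99 at 800 nM. CLK1 was higher than DMSO by 0.95 on the log2 scale at 50 nM, with changes of -0.33 at 200 nM and -1.33 at 800 nM. DUSP4 changed by 0.83, -0.78 and -1.67 at the 3 doses, the p53-pathway phosphatase gene PPM1D by 0.49, -0.95 and -2.0 and AMD1 by 0.36, -0.87 and -1.48. For these 4 genes the difference of 200 from 50 nM had adjusted p between 9.19e-10 and 8.27e-08. By its brightest probe set HEXIM1 was highest at 50 nM, with changes of 1.18, 0.92 and 0.40. Its other active probe sets differed, with 1.01 at 50 nM and 0.78 at 200 nM for one, and 2.54 and 2.66 for the other. The dose at which HEXIM1 was highest thus depended on the probe set. JUNB, with 1.13, 2.46 and 2.30, and SAT1, with 2.06, 2.74 and 2.21, were highest at 200 nM. ATP10D was lowest at 50 nM, with changes of -2.15, -0.59 and 0.07.

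**Figure D4:**
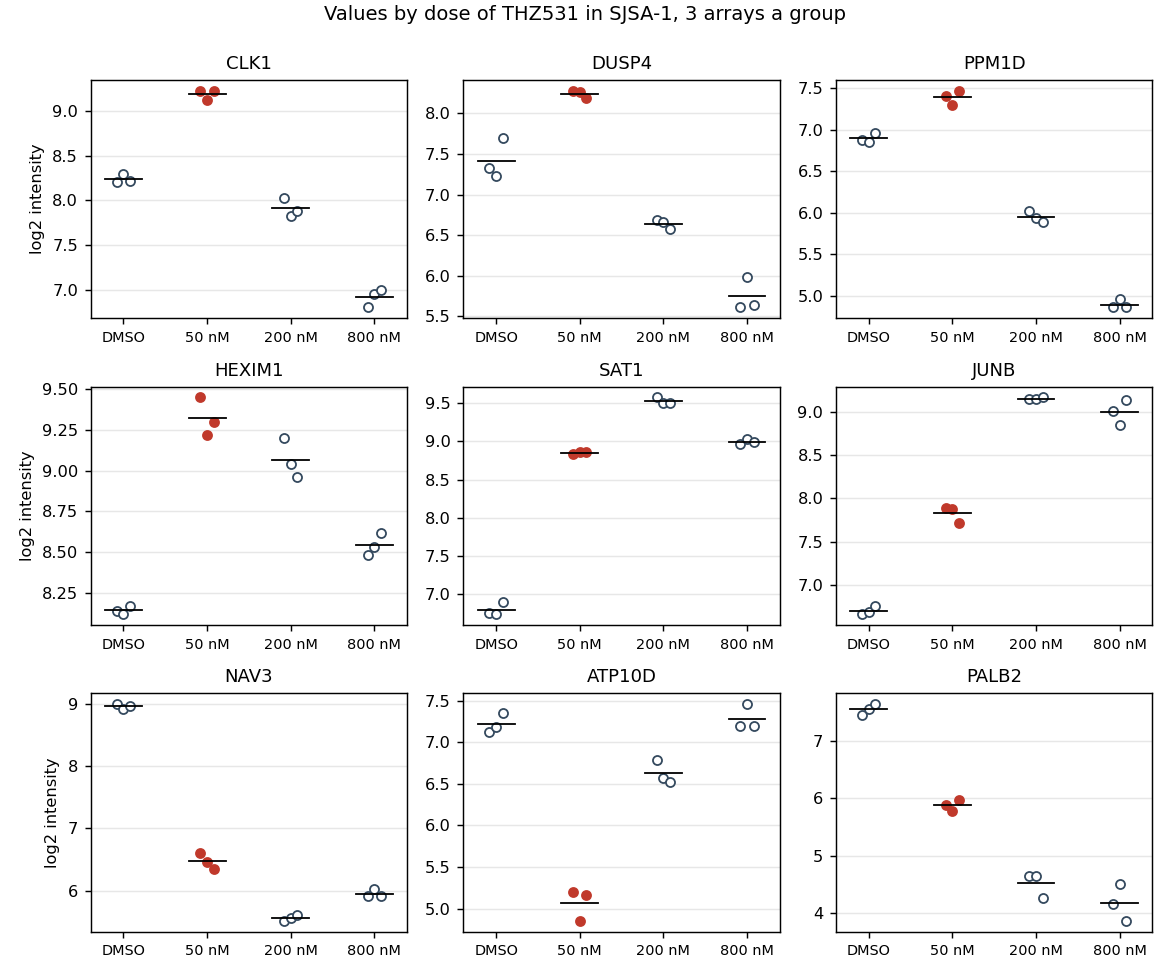
Log2 intensity (vertical axes, each with its own range) of 9 genes in SJSA-1 in DMSO and at 50, 200 and 800 nM THZ531 (horizontal axes), with 3 arrays a group as points, 50 nM filled, and their mean as a line. CLK1, DUSP4 and PPM1D lie above DMSO at 50 nM and below it at 200 and 800 nM, and ATP10D lies lowest at 50 nM.

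The same dose moved U2-OS far less. There 443 of 6741 active genes changed at 50 nM (6.57%), 229 higher (3.4%) and 214 lower (3.17%), with 2 at least 2-fold higher (0.0297%) and 0 at least 2-fold lower (0%). A single fit to the 24 arrays tested whether the changes differ, for the 5851 genes that were active in SJSA-1 and in U2-OS. It passed in 3115 genes (53.2%), with the SJSA-1 change above the U2-OS change in 1160 (19.8%) and below it in 1955 (33.4%). Under the poly-A scaling these counts were 51 and 2402, and under the hybridization scaling 134 and 4396. NAV3 changed by -2.49 in SJSA-1 and 0.37 in U2-OS, a difference of -2.86 (adjusted p = 2.07e-14), and SNX5 by 2.02 and 0.20, a difference of 1.81 (adjusted p = 1.76e-15). CDK12 fell in SJSA-1 (-0.25) and rose in U2-OS (0.42), with a difference of -0.67 (adjusted p = 6.74e-05). CDK9 and MEPCE likewise had lower changes in SJSA-1, with differences of -0.68 and -0.67.

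By list, 14 of the 18 genes of homologous recombination active in both lines and 13 of 18 of the centrosome had a lower change in SJSA-1 than in U2-OS, with 0 and 1 a higher one. For comparison, 33.4% of all 5851 genes tested had a lower SJSA-1 change and 19.8% a higher one. Of 25 immediate-early genes 16 had a higher change in SJSA-1 and 3 a lower one. In U2-OS at 50 nM these lists had medians of -0.14, -0.06 and 0.14. SMAD6 is a gene for which the difference was not detected, with -1.05 in SJSA-1 and -0.80 in U2-OS (difference -0.25, adjusted p = 0.296). Of the 64 genes at least 2-fold higher in SJSA-1 48 were active in U2-OS, with a median change there of 0.09 at 50 nM and 1.05 at 800 nM, and for 325 of the 418 lower ones the U2-OS medians were -0.07 and -1.01. The doses of the last pair differ from the 50 nM of SJSA-1, and no comparison is made between them.

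Markers of other cells were checked because the extraction text of the labels speaks of brain tissue, while the methods name the cell lines. Of the markers of neurons and glia 0 of 14 measured were active in DMSO, and likewise 0 of 14 of leukocytes and endothelium. The neural list summed to intensities of 417 to 449 in the 50 nM arrays and 378 to 410 in the DMSO arrays, and the leukocyte and endothelial list to 238 to 263 against 230 to 237. Of 12 osteoblast markers SPARC alone was active in DMSO, and the list summed to 2160 to 2173 with 50 nM against 2398 to 2491 with DMSO. SPARC made up most of these sums. The defining genes RUNX2, BGLAP, SP7 and IBSP were all below the active level. RUNX2 stood at 5.42, 5.31 and 5.36 with 50 nM against 6.51, 6.56 and 6.48 with DMSO. BMP4, at 6.85, 6.86 and 6.71 against 6.50, 6.42 and 6.54, lay above the level with 50 nM. The log2 difference between 3′ and 5′ probe sets, a sign of RNA integrity, was -0.13 in both groups for GAPDH, and 0.34 with 50 nM against 0.29 with DMSO for ACTB (exact permutation p = 0.3, two-sided, n = 3 each).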

How the data were processed

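Total RNA of SJSA-1 and U2-OS cells was hybridized to Affymetrix PrimeView arrays. The deposited intensity values are linear, which per the methods the authors made by quantile normalization in RMA. MAS5 is named beside RMA in the processing notes of the submitters, without versions. The log2 of each value is a whole hundredth, and array medians of the 6 arrays lay between 31.3 and 32.7, so signal over background limits low genes. Of 49372 probe sets, 44994 carried 1 gene symbol, brought up to date through Entrez identifiers, 1832 several and 2546 none, and probe sets with several or none were not used. Groups came from the labels.

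Changes were fitted to log2(value), with no pseudocount, by limma 3.58.1 in R 4.3.3 (lmFit, eBayes) over the 12 SJSA-1 arrays in 4 groups, with Benjamini-Hochberg adjustment over 6568 genes and a threshold of 0.05. The line difference was an interaction over 24 arrays. Tested on simulated data over 6568 genes, the SJSA-1 fit of 50 nM against DMSO recovered 96% of falls and 92% of rises of 0.5 (log2), all of those of 1, and made 9 false calls. The simulation changed 50 genes for each size and direction, with independent noise and no shift of whole arrays. In the real comparison 67.2% of genes were called and the control signals shifted, so these figures are no error rate for it. Gene lists, members and the genes named were chosen with earlier results of these data known. Named genes are the 12 largest rises and falls with non-overlapping arrays, MDM2, the transcription kinases, the candidates of the study, at most 5 active genes per list, by size of change, and the 6 largest line differences each way. Other members of a list are named to complete a count, and WTAP, PAPOLA and DIDO1 after their values were seen. Spans and promoters are RefSeq, GRCh38.p14. Alternatives were log2(value + 1), log2(value + 16), no filter, a DMSO level of 200, the mean of probe sets, each probe set, 3 scalings, fits of 6 or 24 arrays, eBayes with trend, array weights, the methods' t-test, a replicate block and leaving out each array.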

Additional observations from a re-analysis of the deposited data

Results flagged for a closer look

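The change at 50 nM differed between SJSA-1 and U2-OS in 3115 genes by the interaction test of limma. The genes with the largest differences above U2-OS were SNX5 (1.81), USP15 (1.65), ASXL1 (1.51), PRKAA1 (1.48), RBM12 (1.47) and RSRP1 (1.46). Those with the largest differences below it were NAV3 (-2.86), GOLPH3L (-2.23), HMGA2 (-2.20), FBXO28 (-2.18), ATP10D (-2.18) and HDAC9 (-2.18). For SNX5, USP15 and ASXL1 other probe sets of the gene moved the other way in SJSA-1.

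Signal outside the gene tests was also looked at. The poly-A controls were brighter with 50 nM by 0.51 on the log2 scale (exact permutation p = 0.1, two-sided, n = 3 each, the smallest possible). Of 11564 genes below the active level in DMSO, 72 lay above it at 50 nM, were at least 2-fold higher and had arrays that did not overlap, a direction that the choice of these genes fixes. SNORA65, a small nucleolar RNA, had log2 intensities of 8.45, 8.54 and 8.40 in the 50 nM arrays, against 4.51, 4.48 and 4.51 in the DMSO arrays, a difference of 3.96. EID3 followed with a difference of 3.41, the inhibitor of differentiation ID2 with 3.11 and the small nucleolar RNA SNORA26 with 2.91.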

How the results depend on the processing

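Where 4411 of 6568 genes changed at 50 nM, 1748 higher and 2663 lower, the poly-A scaling gave 5469 of the same 6568, 123 higher and 5346 lower, with 9 at least 2-fold higher and 1305 at least 2-fold lower, and the hybridization scaling gave 4555, with 532, 4023, 24 and 713. Of the 4411 genes, 3329 were also called under the poly-A scaling, 2786 of them in the same direction, and 3195 under the hybridization scaling, all 3195 in the same direction. Centring each array on its median gave 2166 higher and 2305 lower. Without a filter 7068 genes changed, 3094 of them higher, with 197 at least 2-fold higher and 666 at least 2-fold lower. A DMSO level above 200 gave 1702 lower, and 30 and 212 at least 2-fold higher and lower. The mean of all probe sets gave 1617 lower, and 34 and 171. Each probe set on its own gave 8918 changed, 4101 higher, 4817 lower, and 131 and 731. The difference between the lines passed in 1914 genes above a level of 200, 1104 of them lower, and had 51 higher under the poly-A scaling, and 134 higher and 4396 lower under the hybridization scaling. For 200 against 50 nM the poly-A scaling gave 2023 genes, 786 higher and 1237 lower. The cause of these shifts was not tested, apart from the number of features tested, which the filters and the probe set rule set.

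Leaving out 1 array at a time gave 4126 to 4209 genes changed at 50 nM, 1529 to 1667 higher, 2494 to 2611 lower, 62 to 68 at least 2-fold higher and 404 to 450 at least 2-fold lower. It gave 2908 to 3029 genes for the line difference, 1021 to 1164 higher and 1811 to 1957 lower, and 3867 to 4100 for 200 against 50 nM, 1926 to 2095 higher and 1885 to 2086 lower. The poly-A difference ran from 0.41 to 0.61. With the replicate number as a block, 4286 genes changed, 1678 higher and 2608 lower. Same-numbered arrays of 50 nM and DMSO had correlations of deviations of -0.06, -0.04 and -0.17, and those of 200 and 50 nM 0.33, 0.38 and -0.005. In neither comparison were all 3 pairs above 0.1, so the numbers were not taken to pair the samples. For 200 against 50 nM the block gave 4100 genes, 2107 higher and 1993 lower.

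For the 121 genes followed, 2377 of 2439 values kept direction and call, 37 lost and 7 gained the call, and 18 changed sign. Under the poly-A scaling these were AMD1 (-0.15), CCNH (-0.23), CCNK (-0.064), CCNL2 (-0.37), CDK7 (-0.39), CXCL5 (-0.028), NDUFA12 (-0.10), OAZ2 (-0.041), ODC1 (-0.13), PPM1D (-0.014), TCF7L2 (-0.35) and VEGFA (-0.021). Under the hybridization scaling they were CCNL2 (-0.081), CDK7 (-0.11) and TCF7L2 (-0.064), and with the mean of probe sets MDM2 (0.032), NUP98 (-0.29) and TNFRSF10B (0.23). Signal near background limits low genes, and 3 arrays a group limit the precision.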

Other observations

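Among the 72 genes that came up from below the active level, several belong to kinds not covered by the lists. They were looked at after their values were seen and were given no test. Small nucleolar RNAs and their host transcripts included SNORA74A, at a mean log2 intensity of 6.70 with 50 nM and 3.94 with DMSO, SNORA84, at 7.54 and 5.52, and the host transcript SNHG17, at 7.07 and 4.86. The GTPase gene RHOB stood at 8.32 with 50 nM and 5.65 with DMSO, and RGS2, a regulator of G protein signalling, at 7.53 and 5.44. The histone genes H2AC8 and H2BC21, below the active level and so outside the histone count, stood at 7.56 and 6.78 with 50 nM, against 5.11 and 4.43 with DMSO.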
